A study of Mus musculus with 8 samples.

Results

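The circadian clock genes were followed in RNA-seq counts from mouse hippocampus. They are 10 genes named by their symbols for their place in the clock, Arntl, Clock, Per1, Per2, Per3, Cry1, Nr1d1, Nr1d2, Dbp and Ciart, out of 25834 genes in the deposited table. Each of 8 male mice, 4 control and 4 SAP97-cKO, gave 1 hippocampal library. SAP97-cKO mice were Nestin-cre+/- and SAP97fl/fl, so that Cre under the Nestin promoter, which is active in neural progenitors, deletes Dlg1, the gene for the synaptic scaffold SAP97. Controls were littermates that carried Cre alone, the floxed alleles alone or neither, and which of these each control library was, the age of the sequenced mice and the hour of tissue collection were not given in the sources used here. All mice were kept on a light/dark cycle, and no experimental treatment is described. They were put under pentobarbital anesthesia before decapitation. Whether the sequenced mice had been through behavioral tests was not given. The comparison asks whether the state of the clock at collection differed between the genotypes.

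The clock of a mouse cell is a transcriptional loop. Arntl (BMAL1) and Clock form a dimer that binds E-boxes and drives the Per and Cry genes, whose proteins return to block the dimer. The same dimer drives Nr1d1 and Nr1d2, the REV-ERB receptors that repress Arntl, and Dbp, a factor that acts on D-boxes such as those of Per3, while Ciart (CHRONO) is a further E-box target that represses the dimer. In most mouse tissues the Nr1d1, Nr1d2, Dbp, Ciart and Per transcripts peak from the later light phase to dusk, Arntl peaks near the opposite time, Cry1 peaks in between, and Clock varies little. Between the peak times of these arms their transcripts therefore move in opposite directions. The master clock lies in the suprachiasmatic nucleus of the hypothalamus, and the hippocampus has a clock of its own that is linked to memory.

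All libraries held nearly the same number of counts, from 37388177 to 37426572. Dlg1, the targeted gene, had 3984 to 4692 TMM-scaled counts in controls and 2009 to 3066 in SAP97-cKO mice, which checked the genotype labels. Of the 7 hippocampal neuron markers, all 7 were tested and 0 passed the threshold. At an unadjusted p under 0.05 in edgeR, 2 were higher in SAP97-cKO mice, Wfs1 (log2 fold change 0.34) and Rbfox3 (0.19), where 4.73% of genes tested were. Of 6 hypothalamic neuron markers, 4 were abundant enough to test and 0 passed. Six6, a gene of the suprachiasmatic nucleus, was at or near 0 with 0 to 9.97 TMM-scaled counts, and Prok2 was also too low to test. Others of the list were not near 0. Vip had 393 to 1152 in controls and 508 to 957 in SAP97-cKO mice, and Rgs16 had 282 to 485 and 225 to 358. Lhx1 and Avp were lower, with 28.2 to 141 and 15 to 46.6 in controls. In SAP97-cKO mice Lhx1 had 24.9 to 47.6 and Avp 16.2 to 53. The share of hypothalamic tissue in the libraries was not tested. Markers of thalamus, striatum, oligodendrocytes, astrocytes, microglia and endothelium also gave 0 genes past the threshold. The oligodendrocyte markers summed to 4550 to 7160 CPM in controls and 3520 to 6330 in SAP97-cKO mice. All 5 had log2 fold changes below 0 (median -0.47), 3 of them at an unadjusted p under 0.05 in edgeR, where 7.01% of genes tested were lower. Of 4 astrocyte markers, Aqp4 was higher without overlap (0.43), where 2.78% of genes tested were. Of 3 striatum markers, Rgs9 (0.29) had an unadjusted p under 0.05. Meningeal fibroblast markers (6 genes) summed to 98.5 to 150 CPM (counts scaled to library depth) in controls and 56.3 to 111 in SAP97-cKO mice, with 3 past the threshold of the study, a false discovery rate (FDR) under 0.25 (Ogn, Col1a2 and Slc6a13, all lower, where 0.283% of genes tested passed in that direction). All 3 calls were lost when control replicate 2, SAP97-cKO replicate 3 or SAP97-cKO replicate 4 was left out (adjusted p from edgeR 0.346 to 0.646), and that of Slc6a13 also without control replicate 4 (0.302), with DESeq2 size factors (0.252) and with 10 counts in every library (0.261). Choroid plexus markers (6 genes, none at 0) summed to 164 to 6680 CPM in controls and 93.6 to 2300 in SAP97-cKO mice. Control replicate 3 stood apart in transcripts of other brain regions: the glycine transporter gene Slc6a5 had 1239 TMM-scaled counts there against 32.9 to 264 in the other 7 libraries, and Pou4f1, a transcription factor gene of habenula and sensory neurons, had 188 against 3.99 to 31. The part of these differences in the results was not tested, and the values that moved most without control replicate 3 are given beside the result. In bulk tissue, fewer cells of a type and less RNA per cell cannot be told apart.

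None of the clock genes changed past the FDR of 0.25. All 10 were abundant enough to be tested, with 165 to 4857 TMM-scaled counts in any library. In edgeR's quasi-likelihood test 0 of 10 passed, where 0.295% of the 16251 genes tested did (0.283% lower and 0.0123% higher), and the adjusted p-values of the clock genes ran from 0.392 to 0.993. At an unadjusted p under 0.05 there was 1 lower gene (Nr1d2) and 1 higher gene (Nr1d1), where 7.01% of all genes tested were lower and 4.73% higher at that level. Limma-voom and DESeq2 also passed 0 of 10, with the same number at an unadjusted p under 0.05 in each direction. The log2 fold change was above 0 in 6 genes and below 0 in 4, with a median of 0.064 against -0.012 over all genes tested. The groups overlapped in all 10 genes, where 6.25% of genes tested did not overlap (3.47% lower and 2.78% higher). The 95% intervals of single genes, not adjusted for the number of genes, reached from 0.723-fold for Cry1 to 1.43-fold for Ciart, so larger differences between the group means lay outside the interval of every clock gene.

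**Figure D1:**
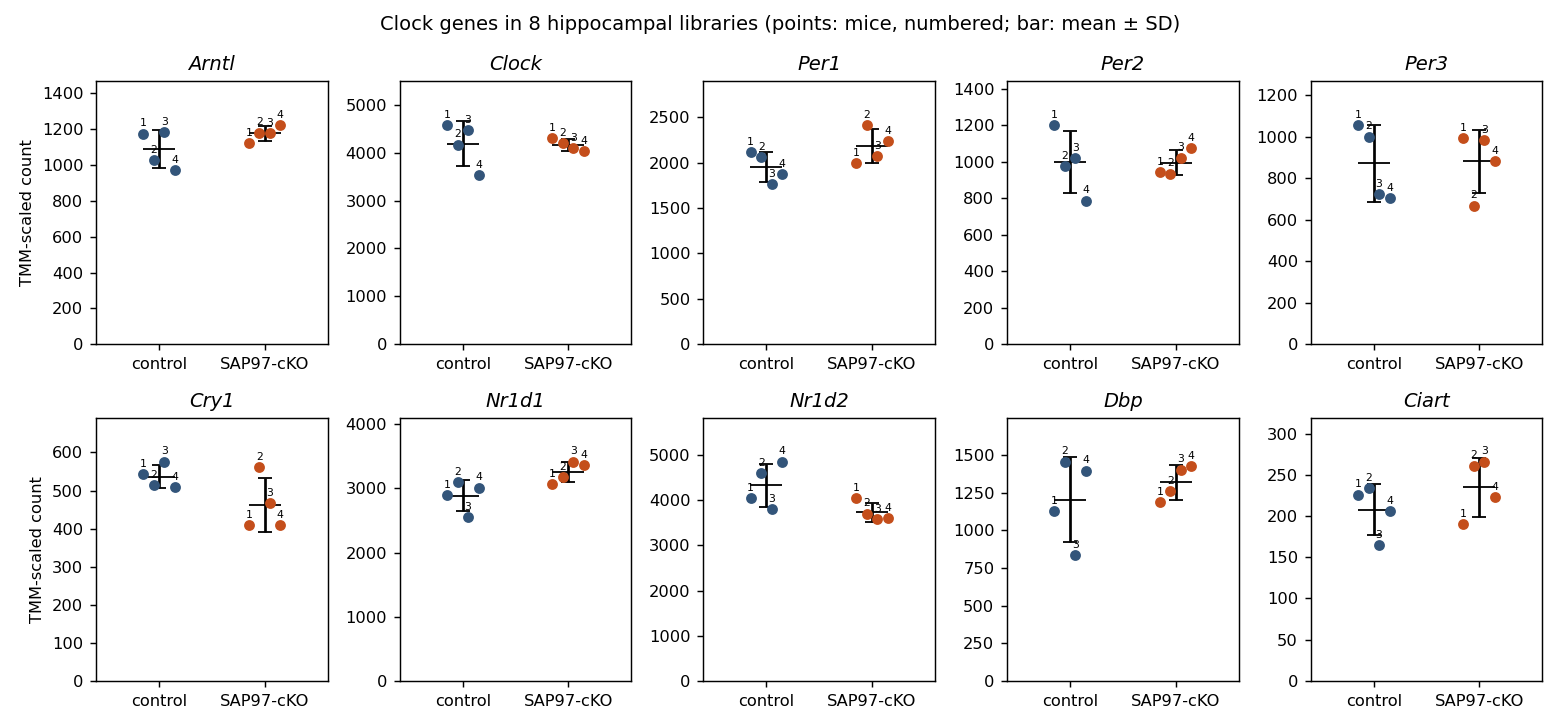
TMM-scaled counts of the 10 clock genes (y axis, from 0) in control and SAP97-cKO hippocampi (x axis). Each point is 1 mouse with its replicate number, and the bars are the mean and SD (n = 4). The groups overlap in every gene, and control replicate 3 is the lowest point for Per1, Nr1d1, Dbp and Ciart.

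**Figure D2:**
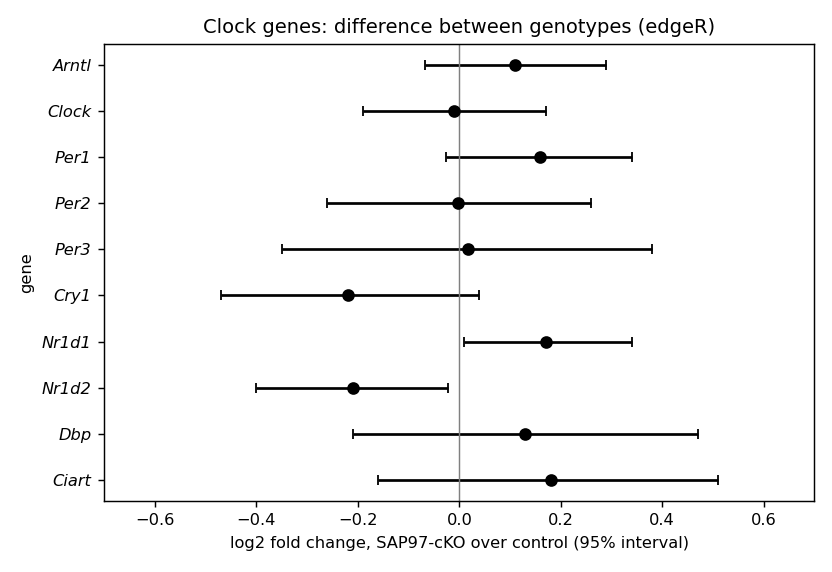
Log2 fold change of each clock gene, SAP97-cKO over control, from edgeR (x axis), with its unadjusted 95% interval as a bar. The intervals of Nr1d1 (0.0089 to 0.34) and Nr1d2 (-0.40 to -0.023) leave out 0, and neither gene passed after adjustment.

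The activators were measured first. Arntl (chromosome 7 of GRCm38, 113207465 to 113314126, plus strand) had 1175, 1029, 1183 and 972 TMM-scaled counts in control replicates 1 to 4 and 1122, 1181, 1177 and 1224 in SAP97-cKO replicates 1 to 4. The lowest values were those of control replicates 4 and 2, and the other 6 libraries lay within a narrow band. The means were 1090 ± 106 (SD, n = 4) and 1176 ± 41.7 (SD, n = 4), a difference of 0.11 on the log2 scale (edgeR SE, the standard error, 0.080, adjusted p = 0.584). Clock (chromosome 5, 76209868 to 76304792, minus strand), the partner of Arntl, had 4582, 4169, 4472 and 3541 in controls and 4308, 4202, 4097 and 4037 in SAP97-cKO mice. All 4 SAP97-cKO values fell inside the control range, and control replicate 4 was again the lowest library. The log2 fold change of Clock was -0.01 (edgeR SE 0.083, adjusted p = 0.970). Npas2, which can stand in for Clock in the forebrain, had 836 ± 128 (SD, n = 4) and 1028 ± 193 (SD, n = 4), with an adjusted p of 0.439 from edgeR and overlapping groups.

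Among the repressors, the 3 Per genes did not move as a set. Per1 (chromosome 11, 69095217 to 69109960, plus strand), which also responds to neuronal activity and glucocorticoids, had 2117, 2062, 1762 and 1874 TMM-scaled counts in controls and 1996, 2416, 2073 and 2234 in SAP97-cKO mice. The upper SAP97-cKO libraries were above every control, and replicates 1 and 3 were not. Its log2 fold change was 0.16 (edgeR SE 0.083, adjusted p = 0.474). Per2 (chromosome 1, 91415982 to 91459324, minus strand) had 1201, 977, 1020 and 786 in controls and 943, 934, 1022 and 1076 in SAP97-cKO mice. Controls held both the highest and the lowest value of Per2, and the means were 996 ± 170 (SD, n = 4) and 994 ± 67.4 (SD, n = 4). Per3 (chromosome 4, 151003652 to 151044665, minus strand) had 1056, 1000, 723 and 702 in controls and 991, 667, 984 and 881 in SAP97-cKO mice. Each genotype held both high and low libraries of Per3, and 74% of the genes tested had a smaller within-genotype SD of log2 CPM. The sign of the log2 fold changes of Per2 (-0.0035, SE 0.12) and Per3 (0.018, SE 0.16) differed between scalings, and both adjusted p-values from edgeR were above 0.97.

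Cry1 (chromosome 10, 85131700 to 85185064, minus strand), the strongest repressor of the dimer, had the lowest ratio to control among the repressors. It had 544, 515, 576 and 510 TMM-scaled counts in controls and 409, 562, 466 and 410 in SAP97-cKO mice. The controls lay close together, and of the SAP97-cKO libraries only replicate 2 reached them. The means were 536 ± 30.5 (SD, n = 4) and 462 ± 71.6 (SD, n = 4), or 86.1% of control, with a difference of -0.22 on the log2 scale (edgeR SE 0.11, adjusted p = 0.474). Without SAP97-cKO replicate 2 the log2 fold change was -0.32 and the adjusted p from edgeR 0.361. Its paralog Cry2 had 4292 ± 195 (SD, n = 4) and 4810 ± 277 (SD, n = 4), in the other direction (log2 fold change 0.16, SE 0.065, adjusted p = 0.389 from edgeR). Ciart (chromosome 3, 95878503 to 95882251, minus strand) had 226, 234, 165 and 206 in controls and 190, 261, 266 and 223 in SAP97-cKO mice. SAP97-cKO replicates 2 and 3 were the highest libraries and control replicate 3 the lowest, and the log2 fold change was 0.18 (edgeR SE 0.15, adjusted p = 0.635). Without control replicate 3 that of Ciart was 0.094.

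The REV-ERB genes had the smallest p-values of the clock genes, in opposite directions. Nr1d1 (chromosome 11, 98767932 to 98775333, minus strand) had 2899, 3094, 2553 and 3012 TMM-scaled counts in controls and 3070, 3176, 3418 and 3358 in SAP97-cKO mice. A single overlap separated the groups from each other's range, since control replicate 2 lay above SAP97-cKO replicate 1. The log2 fold change of Nr1d1 was 0.17 (edgeR SE 0.074, unadjusted p = 0.0407, adjusted p = 0.410), and the exact two-sided permutation test over the 8 libraries gave p = 0.0571. Nr1d2 (chromosome 14, 18204054 to 18239127, minus strand) had 4052, 4604, 3804 and 4857 in controls and 4046, 3704, 3576 and 3605 in SAP97-cKO mice. Its overlap was also narrow, with control replicate 3 below SAP97-cKO replicate 1. The log2 fold change of Nr1d2 was -0.21 (edgeR SE 0.086, unadjusted p = 0.0315, adjusted p = 0.392), and p was again 0.0571 in the exact permutation test, which at this group size cannot go below 0.0286. Ordered by p in edgeR, Nr1d2 was number 1306 of the 16251 genes tested. Over the 15 alternatives the unadjusted p of Nr1d2 stayed under 0.05 in 9 and that of Nr1d1 in 8. With 1 library left out, Nr1d2 lost it for SAP97-cKO replicates 2, 3 and 4 and for controls 2 and 4 (edgeR p from 0.0590 to 0.0936). Nr1d1 lost it for the same SAP97-cKO replicates and for controls 1 and 3 (edgeR p from 0.0522 to 0.112), and without scaling (0.102). Both lost it with the replicate block (0.0506 and 0.0745). Nr1d1 shares 263 exonic bases (8.55% of its own) with Thra, a thyroid hormone receptor gene on the opposite strand, and the sources used here do not say if strand was used in counting, so reads of these genes cannot be told apart there. Thra was far more abundant, with 33622 to 40025 TMM-scaled counts in controls and 39414 to 45051 in SAP97-cKO mice, a difference of 0.19 on the log2 scale (edgeR SE 0.085, adjusted p = 0.415).

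Dbp (chromosome 7, 45705088 to 45710203, plus strand), among the most strongly cycling transcripts of mouse tissues, had the widest range over the 8 mice, while the SD within genotypes was larger for Per3. It had 1129, 1457, 837 and 1397 TMM-scaled counts in controls and 1186, 1262, 1404 and 1426 in SAP97-cKO mice. The highest and the lowest library were both controls, 1.74-fold apart, and the SAP97-cKO libraries lay between them. The means were 1205 ± 284 (SD, n = 4) and 1319 ± 115 (SD, n = 4), a difference of 0.13 on the log2 scale (edgeR SE 0.15, adjusted p = 0.735). Without control replicate 3 the log2 fold change of Dbp was 0.0041. Dbp shares 539 exonic bases (18% of its own) with Sphk2 on the opposite strand, which had a log2 fold change of 0.04 (SE 0.076). The other members of its factor family, Tef and Hlf, and their antagonist Nfil3 had adjusted p-values from edgeR of 0.855, 0.532 and 0.765, with log2 fold changes of 0.038, -0.20 and -0.10.

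Relative to exon length, the REV-ERB genes were the most abundant clock genes in both genotypes. As RPKM, counts scaled to library depth and to annotated exon length, the control levels were 25.1 ± 2.07 (SD, n = 4) for Nr1d1 and 21.4 ± 2.40 for Nr1d2. Dbp followed at 10.8 ± 2.53, Per1 at 9.27 ± 0.781 and Clock at 8.16 ± 0.909. Per2 (4.54 ± 0.776), Cry1 (4.29 ± 0.244) and Arntl (3.87 ± 0.376) came next, and Ciart (2.46 ± 0.365) and Per3 (2.42 ± 0.511) were lowest. By mean ± SD, neighbours overlapped within each of these groups of levels (Nr1d1 and Nr1d2, then Dbp to Clock, then Per2 to Arntl, then Ciart and Per3) and not between them. In SAP97-cKO mice the order was the same except that Arntl (4.18 ± 0.148) came before Cry1 (3.69 ± 0.573). The level of Nr1d1 there was 28.3 ± 1.40 and that of Nr1d2 was 18.4 ± 1.07, which did not overlap.

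Whether the clock stood at another phase was read from the arms within each library. The day arm was the mean log2 CPM of Per1, Per2, Per3, Nr1d1, Nr1d2, Dbp and Ciart, the night arm that of Arntl and Clock, and their difference does not depend on how libraries are scaled. It was -0.783, -0.579, -1.08 and -0.586 in control replicates 1 to 4 and -0.793, -0.790, -0.669 and -0.718 in SAP97-cKO replicates 1 to 4. The group means were -0.76 ± 0.24 (SD, n = 4) and -0.74 ± 0.06 (SD, n = 4). The genotypes thus differed by 0.015 (SE from the group SDs 0.122), less than the spread between control mice. Single libraries moved this difference across 0: it was -0.0937 without control replicate 3, where the SD of the controls was 0.12, and 0.0749 without control replicate 2. Both arms were slightly higher in SAP97-cKO mice, by 0.070 for the day arm and 0.055 for the night arm. The night arm includes Clock, which varies little, and in the day arm Nr1d1 and Nr1d2 had opposite signs. Over the mice, the median Pearson r of log2 CPM was 0.23 between genes of the day arm. Between genes of the day arm and the night arm it was 0.086, not below 0. A small difference in this score therefore cannot decide whether the phase was the same. Being a score over chosen genes, the difference was given no test.

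The controls spread around this mean more widely than the SAP97-cKO mice did. The ratio of Dbp to Arntl was 0.961, 1.42, 0.708 and 1.44 in controls and 1.06, 1.07, 1.19 and 1.16 in SAP97-cKO mice. Control replicates 2 and 4 were highest and control replicate 3 lowest, with all SAP97-cKO mice in between. On the log2 scale the SD of this ratio was 0.49 in controls and 0.088 in SAP97-cKO mice, and 0.33 in controls without replicate 3. The SD of log2 CPM was larger among controls for 9 of the 10 clock genes (all but Cry1), where it was larger among controls for 60.4% of the genes tested. Without control replicate 3 it was larger for 6 of the 10, where the share over all genes tested was 60.6%. The wider spread of the day arm minus the night arm in controls also rested partly on that library, since its SD was 0.12 without it.

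**Figure D3:**
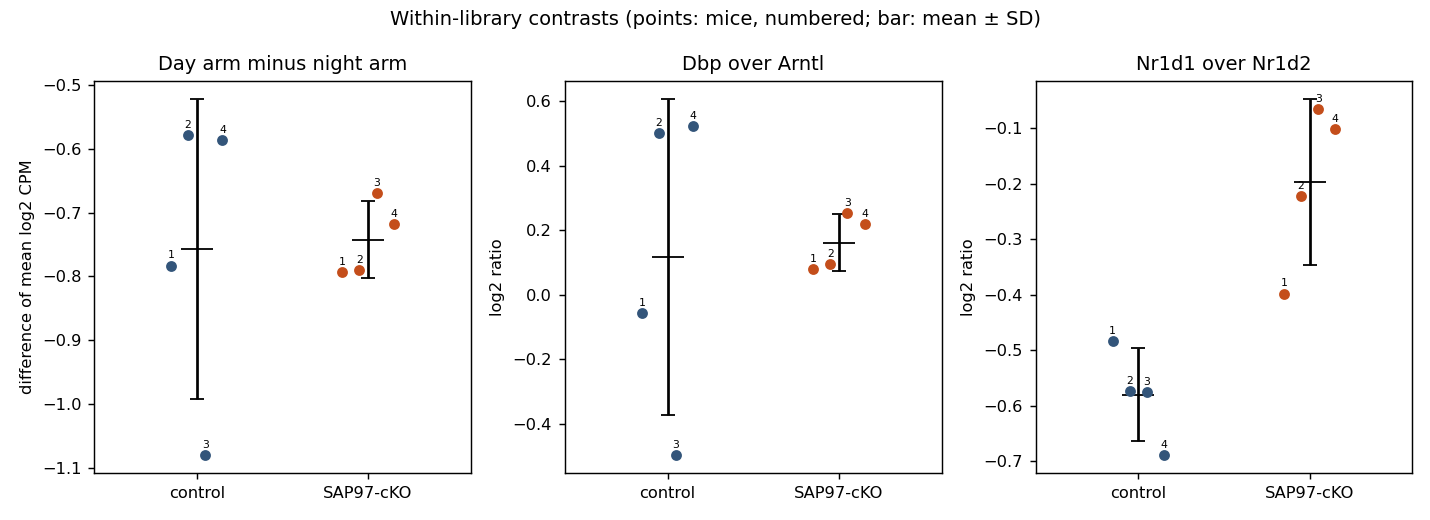
Within-library contrasts on the log2 scale (y axes, which do not start at 0) in control and SAP97-cKO mice. Points are mice with their replicate numbers, and bars are the mean and SD (n = 4). The first and second contrasts overlap between genotypes with a wider spread in controls, and the ratio of Nr1d1 to Nr1d2 does not overlap.

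The balance of the REV-ERB genes differed between the genotypes without overlap. Nr1d1 per Nr1d2 was 0.716, 0.672, 0.671 and 0.620 in controls and 0.759, 0.858, 0.956 and 0.931 in SAP97-cKO mice, a difference of 0.38 on the log2 scale. Each SAP97-cKO value was above each control value. This ratio was singled out after its values had been seen. Of the 45 ratios among the 10 clock genes, 3 did not overlap (6.67%), these being Nr1d1 to Nr1d2, Per1 to Cry1 and Cry1 to Ciart, where 6.25% of all pairs of genes tested did not overlap. The share among the clock genes was thus close to that of all genes.

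Across the 8 mice, Arntl tended to be low where Nr1d2 was high. Their log2 CPM had a Pearson r of -0.95 (exact permutation p = 0.00134, 0.0121 after Benjamini-Hochberg adjustment over the 9 relations of Arntl with the other clock genes). Spearman's rho was -0.81 (exact permutation p = 0.0218, adjusted 0.196), and without control replicates 2 and 4, the libraries farthest from the median of Arntl, r was -0.68 over 6 mice (exact permutation p = 0.133). That the relation passed the test thus rests on those controls, which had the lowest Arntl and the highest Nr1d2, while the sign of r was negative with and without them. Of the 8 libraries, control replicate 4 also had the fewest TMM-scaled counts of the neuron markers Rbfox3 (7132) and Zbtb20 (5618). It had the most of Mbp (145998, oligodendrocytes) and Gja1 (14707, astrocytes). Control replicate 2 was at neither end for these genes. The part of cell mix in the relation was not tested. With each value centred on its genotype r was -0.95 (adjusted permutation p = 0.0058), and without scaling of the libraries it was -0.86 (adjusted permutation p = 0.108). The other 8 relations of Arntl did not pass after adjustment. The next was that with Per2, with an r of 0.73 (exact permutation p = 0.0342, adjusted 0.154) and a rho of 0.50 (exact permutation p = 0.216, adjusted 0.791). Centred on genotype, Per2 had an r of 0.84 (adjusted permutation p = 0.034). The permutation p-values after centring are approximate and can be too small, since they do not allow for the group means removed. Without control replicates 2 and 4 Per2 had an r of 0.41 (n = 6, exact permutation p = 0.418). In the order of all 16250 other genes by r to Arntl, Nr1d2 was number 16244 from the top, among the most opposite, Per2 was number 1135 and Clock number 2014.

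**Figure D4:**
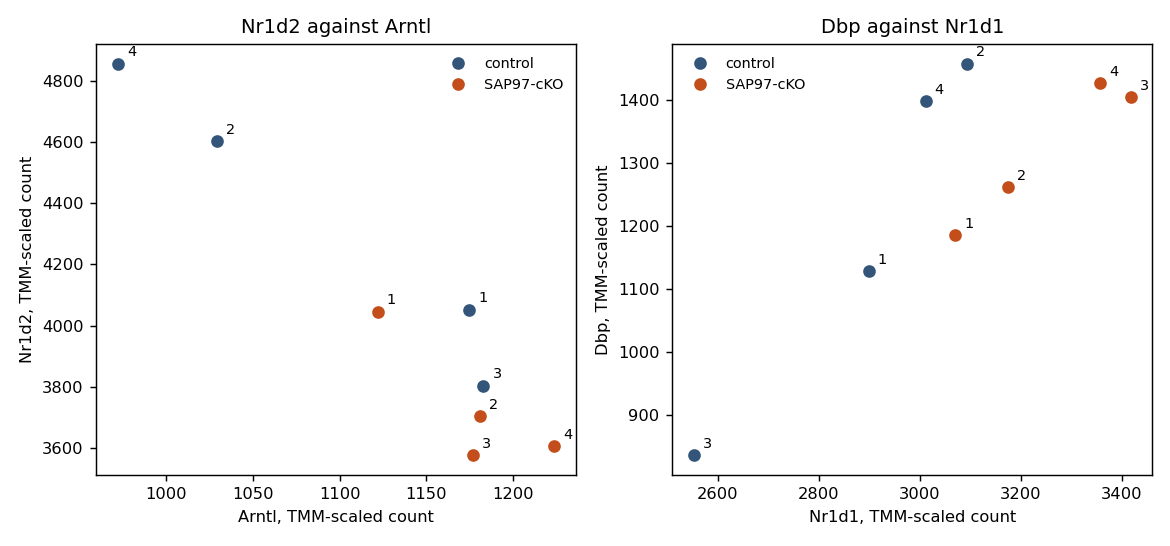
TMM-scaled counts of Nr1d2 against Arntl (left) and of Dbp against Nr1d1 (right), with each point a mouse labelled by its replicate number. Control replicates 2 and 4 lie at the low end of Arntl and the high end of Nr1d2, and control replicate 3 lies lowest in Dbp and Nr1d1.

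Dbp, Nr1d1 and Ciart varied together over the same mice, and Per1 less closely with Dbp. The r of Dbp was 0.87 with Nr1d1 and 0.71 with Ciart, and Ciart had an r of 0.79 with both Nr1d1 and Per1. Per1 had an r of 0.68 with Nr1d1 and 0.50 with Dbp. These values are descriptions over 8 libraries that share their scaling. In the order by r to Dbp, Nr1d1 was number 23, Ciart number 203 and Per1 number 1177 of 16250 genes. Control replicate 3, the lowest library in all of them, carried much of this. Without it r was 0.59 for Dbp with Nr1d1, 0.26 for Dbp with Ciart and 0.52 for Nr1d1 with Ciart. For Per1 it was then 0.62 with Ciart and 0.36 with Nr1d1. The genes most opposite to Dbp were Ankrd26 (r = -0.953), Pou4f1 (-0.942), Slc6a5 (-0.926), Kcnh8 (-0.923) and Pax2 (-0.922), and all 5 were highest in control replicate 3. The genes most like Dbp were Rps27rt (0.946), Ndc1 (0.945), Gmfg (0.940), Gm7785 (0.923) and N4bp2l1 (0.921). Those most like Arntl were Etv3 (0.967), Ninl (0.966), Ajap1 (0.960), Slx4 (0.957) and Exoc8 (0.955), and those most opposite were Ska2 (-0.977), Bmper (-0.967), Ass1 (-0.960), Pim3 (-0.960) and Fcgr2b (-0.959), so none of the other clock genes was among the 5 nearest. Over all 45 pairs of clock genes the median r was 0.087.

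**Figure D5:**
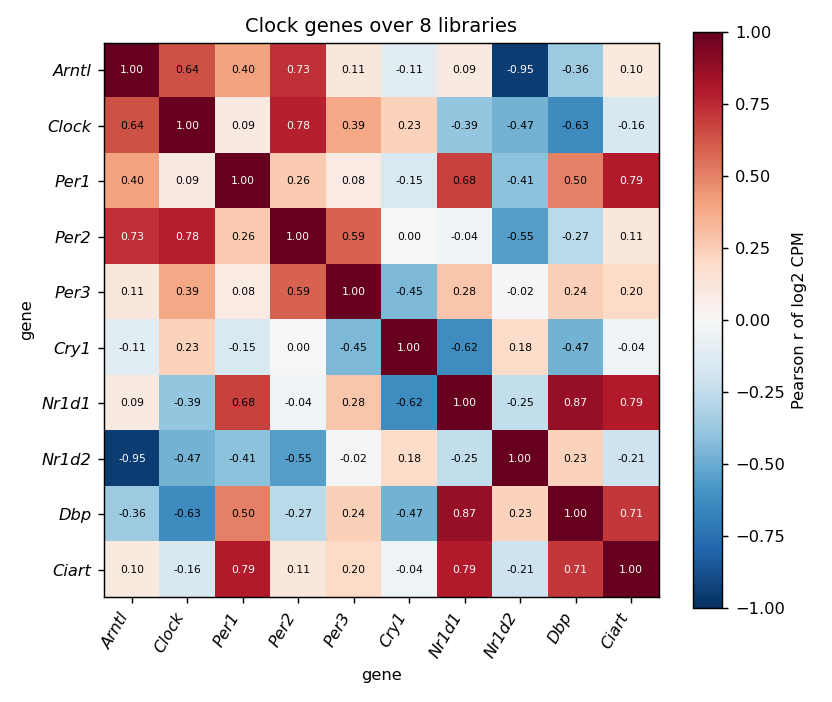
Pearson r of log2 CPM between the clock genes (both axes) over the 8 libraries, with colour from blue at -1 to red at 1. The values among Nr1d1, Dbp, Ciart and Per1 run from 0.50 to 0.87, and the strongest negative value is that of Arntl with Nr1d2 (-0.95).

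The sequences that these factors read were looked up before the start sites of the clock genes. RefSeq promoters (GRCm38.p6) were found for 9 of the 10 genes, all but Per2, with 13 start sites. In the 250 bases before a start, both strands were searched for the E-box CACGTG, the E-prime-box CACGTT, the D-box TTATGTAA, the cyclic AMP response element TGACGTCA and the REV-ERB/ROR core as TAGGTCA or TGGGTCA. An E-box was found for Ciart, Per1 and Cry1 (6.02% of 32851 promoters hold it), an E-prime-box for Cry1 and Nr1d1 (3.85%) and a D-box for Per3 (0.819%). The cyclic AMP element (1.55%) and the cores (2.23% and 3.24%) were not found in these windows. Ciart has E-boxes that begin 116, 58 and 44 bases before its start, and Per3 has D-boxes at 205 and 158. The promoters below show these letters in the repressors and in the REV-ERB genes that differed in direction, with motif letters in capitals, 5′ to 3′ on the strand of the gene. That of Per1 is the first of its starts, and the other Per1 start has none of the motifs in its window. In Nr1d1 and Cry1 the E-prime-box reads AACGTG, on the other strand, and Nr1d2 has none of the motifs here.
Ciart (chr3:95882229-95882478, minus strand): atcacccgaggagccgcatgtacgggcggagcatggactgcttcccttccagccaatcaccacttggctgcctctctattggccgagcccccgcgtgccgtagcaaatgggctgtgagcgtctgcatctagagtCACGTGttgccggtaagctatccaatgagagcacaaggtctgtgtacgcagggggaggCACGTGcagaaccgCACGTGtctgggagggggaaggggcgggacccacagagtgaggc
Per1 (chr11:69098699-69098948, plus strand): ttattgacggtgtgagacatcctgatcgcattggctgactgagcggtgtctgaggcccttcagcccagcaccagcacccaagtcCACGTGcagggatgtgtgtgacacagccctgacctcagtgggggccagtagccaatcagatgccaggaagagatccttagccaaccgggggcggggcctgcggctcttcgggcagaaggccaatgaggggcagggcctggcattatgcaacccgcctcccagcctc
Per3 (chr4:151044666-151044915, minus strand): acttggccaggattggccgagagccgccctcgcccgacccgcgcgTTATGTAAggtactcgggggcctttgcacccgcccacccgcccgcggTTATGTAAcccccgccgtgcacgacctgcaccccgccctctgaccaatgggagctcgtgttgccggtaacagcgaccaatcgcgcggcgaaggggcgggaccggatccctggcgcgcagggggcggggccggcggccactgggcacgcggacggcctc
Cry1 (chr10:85185055-85185304, minus strand): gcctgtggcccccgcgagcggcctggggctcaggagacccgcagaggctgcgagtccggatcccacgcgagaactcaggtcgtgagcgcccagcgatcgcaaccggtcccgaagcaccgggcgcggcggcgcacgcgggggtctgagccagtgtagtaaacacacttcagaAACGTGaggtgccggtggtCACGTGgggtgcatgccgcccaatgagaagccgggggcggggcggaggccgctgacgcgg
Nr1d1 (chr11:98775378-98775627, minus strand): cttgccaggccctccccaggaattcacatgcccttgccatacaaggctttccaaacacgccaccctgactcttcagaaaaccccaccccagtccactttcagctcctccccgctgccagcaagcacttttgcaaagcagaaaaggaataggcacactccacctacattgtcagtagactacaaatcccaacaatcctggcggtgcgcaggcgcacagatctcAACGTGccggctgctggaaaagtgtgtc
Nr1d2 (chr14:18239107-18239356, minus strand): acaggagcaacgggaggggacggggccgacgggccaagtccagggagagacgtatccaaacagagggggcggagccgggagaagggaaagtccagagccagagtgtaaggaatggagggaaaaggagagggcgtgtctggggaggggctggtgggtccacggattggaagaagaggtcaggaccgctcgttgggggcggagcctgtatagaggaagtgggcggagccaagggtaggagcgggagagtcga
Beside these letters, Ciart with its E-boxes, Per1 with its E-box and Nr1d1 with its E-prime-box had log2 fold changes of 0.18, 0.16 and 0.17, and Cry1, with an E-box and an E-prime-box, had -0.22. Genes with the same element thus had values on both sides of 0, and none of them passed the threshold.

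The rest of the clock pathway was compared in the same way. Of 17 other clock genes (among them Npas2, Cry2, the Ror genes, Tef, Hlf, Nfil3, the casein kinase genes Csnk1d and Csnk1e, and Btrc), all 17 were tested and 0 passed in edgeR. Of all genes tested, 0.295% passed. Only Cry2 had an unadjusted p under 0.05, and it was higher, where 4.73% of genes tested were higher at that level. The median log2 fold change of the 17 was 0.0076 against -0.012 over all genes tested. Btrc, whose product marks the Per proteins for degradation, had an adjusted p of 0.475 from edgeR with a log2 fold change of 0.14. Among 7 clock-controlled output genes 1 passed, Tsc22d3, which was lower (0.283% of genes tested passed in that direction). Of the 7, 6 had log2 fold changes below 0, and the median was -0.12. Usp2 (log2 fold change 0.035, SE 0.096) and Wee1 (-0.15, SE 0.11), direct outputs of the loop, had adjusted p-values from edgeR of 0.899 and 0.584. Fmo2, with the next smallest p of the outputs, had 40.8 to 86.5 TMM-scaled counts in controls and 21.3 to 66.2 in SAP97-cKO mice.

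Tsc22d3 is also induced by glucocorticoids, whose daily rhythm reaches Per1 as well. Of 12 glucocorticoid-induced genes, 3 passed and were lower, Sgk1, Tsc22d3 and Sult1a1, all 12 had log2 fold changes below 0 and the median was -0.23, where 0.283% of genes tested passed in that direction. Sgk1, a kinase gene, was at -0.56 (SE 0.077), Tsc22d3 (GILZ) at -0.61 (SE 0.097) and Sult1a1, a sulfotransferase gene, at -0.83 (SE 0.15), with adjusted p-values from edgeR of 0.143, 0.143 and 0.167. These 3 are in the study's own list from the same libraries, so their direction is not independent evidence, and without control replicate 2, SAP97-cKO replicate 3 or SAP97-cKO replicate 4 their adjusted p-values from edgeR were 0.346 to 0.524. Per1 had a log2 fold change of 0.16 and did not pass (adjusted p = 0.474 from edgeR), and whether glucocorticoids differed was not tested. The meningeal fibroblast markers Ogn, Col1a2 and Slc6a13 were lower in the same mice, while Dcn of the same list was near 0 (log2 fold change -0.0076, SE 0.42). The part of such cells in the lower values of the glucocorticoid-induced genes was not tested.

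Genes of the other inputs to the clock did not pass. Of 12 immediate early genes, which like Per1 respond to neuronal activity, 0 passed and 0 had an unadjusted p under 0.05 in edgeR. Of all genes tested, 0.295% passed and 11.7% had such an unadjusted p. The 12 genes had 10 log2 fold changes above 0 and a median of 0.24. Nr4a1 had 1251 ± 231 (SD, n = 4) and 1593 ± 468 (SD, n = 4) TMM-scaled counts, Egr4 had 691 ± 82.0 and 843 ± 200, and Egr1 had 2916 ± 121 and 3511 ± 969, with overlapping groups. SAP97-cKO replicate 2 was the highest library for each of them, with 2275 TMM-scaled counts of Nr4a1, 1101 of Egr4 and 4931 of Egr1. Of 8 genes that follow body temperature, 0 passed and 0 had an unadjusted p under 0.05, beside the same shares over all genes tested. Their median log2 fold change was -0.071. Cirbp, the cold-inducible RNA-binding protein gene, had 1149 to 1957 TMM-scaled counts in controls and 1667 to 1855 in SAP97-cKO mice. Like Dbp, it had its highest and lowest values among the controls. Dnajb1 (1955 to 2540 and 1662 to 2236) and Hspa8 (57945 to 68119 and 50341 to 59622), heat shock chaperone genes, overlapped between the genotypes.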

How the data were processed

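The data are RNA-seq counts from 8 mouse hippocampi, 4 control and 4 SAP97-cKO. The authors used STAR 2.5.3a and the mm10 genome (GRCm38.p5) for alignment, removed ribosomal and mitochondrial reads, resampled the libraries to a common depth with their PORT pipeline and counted reads per Ensembl gene. The deposited counts are whole numbers. Use of strand in counting is not given in the sources used here. A log2 column, a p-value column and a q-value column from the authors' comparison with limma-voom were left unused.

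Low genes were removed with filterByExpr (count of 10, total of 15, grouped by genotype), and 16251 of 25834 stayed. TMM factors were 0.9637 to 1.031. The main test was the quasi-likelihood F test (edgeR 4.0.16, R 4.3.3). P-values were adjusted over the genes that stayed by the Benjamini-Hochberg method, and the FDR of 0.25 is that of the study. TMM-scaled counts are CPM times the mean library total. Standard errors of single genes are the log2 fold change over the square root of F. Log2 CPM used a prior count of 2. Each library is a mouse, and the test was checked on simulated counts. Lengths, coordinates and overlaps came from GENCODE M21 (GRCm38). Permutation tests were two-sided, and exact except after centring on genotype. There the centred values were permuted over all libraries without allowing for the group means removed, so those p-values are approximate. Plots were drawn with matplotlib 3.10.9.

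The clock genes, the other lists and the tests were chosen with earlier results of these data known. Named genes are the clock genes, the genes of a list past the threshold or up to 3 with its smallest p, the 5 nearest and 5 most opposite to Arntl and to Dbp, Dlg1 and genes sharing exonic bases. Usp2, Tef, Hlf, Nfil3, Six6 and further cell type markers were added after their values had been seen. Alternatives were limma-voom 3.58.1, DESeq2 1.42.0, no scaling, DESeq2 size factors, other filters, an FDR of 0.05, a replicate block and each library left out.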

Additional observations from a re-analysis of the deposited data

How the results depend on the processing

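No clock gene passed the FDR of 0.25 under any alternative tried, the 8 fits without 1 library included, where the lowest adjusted p of a clock gene was 0.254 (Nr1d2 without control replicate 1). The directions of Arntl, Per1, Cry1, Nr1d1, Nr1d2, Dbp and Ciart held in all 16 settings. Those of the clock genes nearest 0 did not. Per2 (-0.0035) was at 0.0106 in limma-voom, 0.00169 in DESeq2 and with its size factors in edgeR, 0.00652 without a filter, 0.000918 with 10 counts in every library and 0.00886 with the replicate block. Without scaling Per3 was at -0.0261. With 1 library left out, Clock ran from -0.0824 to 0.0358, Per2 from -0.101 to 0.0994 and Per3 from -0.0718 to 0.13. The cause was not tested.

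The day arm minus the night arm differed between genotypes by -0.0937 to 0.0749 with 1 library left out. Of 9 correlations with Arntl, 1 passed, and 0 passed without scaling and 2 after centring on genotype. The permutation p-values after centring are approximate and can be too small. Without scaling r was -0.0999 for Per3, 0.0797 for Cry1, -0.235 for Nr1d1 and -0.0449 for Ciart. Centred, it was 0.337 for Cry1, -0.479 for Nr1d1 and -0.148 for Ciart. Without the 2 farthest libraries it was -0.369 for Clock, -0.308 for Per3, 0.123 for Cry1 and 0.209 for Dbp. Leaving out control replicate 3 was chosen after seeing the data.

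Over all genes, edgeR called 46 lower and 2 higher, against 588 and 445 in DESeq2, 94 and 1 without scaling and 89 and 15 without a filter. With 1 library left out the counts ran from 0 to 960 lower and from 0 to 715 higher. At an FDR of 0.05, edgeR called 0 lower and 0 higher (1907 genes at an unadjusted p under 0.05), limma-voom 0 and DESeq2 156. The replicate block gave 234 lower and 22 higher, none of them a clock gene, and 0 clock genes had an unadjusted p under 0.05 there. Same-numbered libraries had correlations of deviations from -0.062 to 0.259, and control replicates 2, 3 and 4 correlated best with their own number and control replicate 1 did not. Ttr of the choroid plexus followed the same order by number in both genotypes. Nothing in the labels says that a number marks a shared batch, and 2 of the 4 correlations were under 0.1, so the samples were not taken as paired. With 4 mice per group, differences inside the intervals given are not excluded.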
